A study of Mus musculus and Acomys cahirinus with 84 samples.

Results

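The genes described here are 9 genes of the machinery that detects or removes nucleic acid in the cytosol: Cgas, Sting1, Tbk1, Irf3, Mavs, Trex1, Samhd1, Adar and Rnaseh2b. They were taken by symbol from 2 tables of gene counts, and all 9 have a row in each, among 56980 genes in the mouse table and 19818 in the table of the African spiny mouse Acomys cahirinus. The cells were primary skin fibroblasts from C56BL6 laboratory mice, wild mice and A. cahirinus. Cultures were left untreated (0 Gy) or received 10 Gy or 20 Gy of gamma irradiation, and polyA RNA was sequenced 24 h or 12 d later. The 12 d series has a further untreated group that was passaged. This gives 21 groups of 4 libraries and 84 libraries in all; age and sex of the animals, and the conditions of passage, are not given in the sources used here. Within a population each replicate number carries 1 animal code in the library names, and these numbers were used as a block in a second fit of every comparison. All 24 h libraries are labelled as batch B1 and all 12 d libraries as batch B2, which means that time point and batch label cannot be told apart, and the 2 times were never tested against each other.

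cGAS, encoded by Cgas, binds double-stranded DNA in the cytosol and makes the cyclic dinucleotide cGAMP, which activates the adaptor STING (Sting1) on the endoplasmic reticulum. MAVS is the matching adaptor on mitochondria for the RNA helicases RIG-I and MDA5. Both adaptors recruit the kinase TBK1, which phosphorylates the transcription factor IRF3, and IRF3 turns on interferon genes. The other genes keep the ligands low: TREX1 is an exonuclease that degrades cytosolic DNA, SAMHD1 hydrolyses deoxynucleotides, ADAR edits adenosine in double-stranded RNA so that the RNA sensors do not see it as foreign, and RNASEH2B is a subunit of the enzyme that removes ribonucleotides from DNA. Inherited loss of several of these clearance enzymes causes interferon-driven disease, and DNA that leaks from the nucleus of irradiated or senescent fibroblasts is a known ligand of cGAS.

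Library totals were 26653561 to 39819857 counts in C56BL6, 17419339 to 35984517 in wild mice and 25552727 to 52857478 in A. cahirinus. A count of 3 in such a library, used here as the floor of detection, is 0.0753 to 0.1126, 0.0834 to 0.1722 and 0.0568 to 0.1174 CPM in the 3 populations, where CPM is the count-per-million scale, a count relative to its library total; this floor covers counting error only. Fibroblast markers summed to 11100 to 69400 CPM in every 12 d library. Some libraries stood apart. Replicate 1 of the wild mice at 24 h and 10 Gy had 17419339 counts and 17843 detected genes, where its 3 companion libraries had 21846 to 22253 genes. In the wild mice at 12 d no gene was on in the libraries of number 1 and off in those of number 4 or the reverse, while other pairs of numbers at 12 d differed in 10 to 27 such genes. The 12 d libraries of number 1 likewise differed in 0 such genes from the 24 h libraries of number 4 and in 19 from those of their own number. In C56BL6, numbers 3 and 4 also differed in 0 such genes at both times. Whether wild numbers 1 and 4 at 12 d come from different animals was not settled. If they do not, the wild tests at 12 d, blocked or not, rest on fewer than 4 animals. The blocked calls in wild mice at 12 d are therefore also given without number 1 and without number 4, and the unblocked calls carry this limit. The C56BL6 libraries of number 1 held keratinocyte markers, almost all Krt5 and Krt14, at 272 to 390 CPM at 24 h and 214 to 828 CPM at 12 d, against at most 0.714 and 2.41 CPM in numbers 2 to 4. Summed muscle and pericyte markers also ranged widely within groups. They stood at 26.4 to 2200 CPM in untreated wild libraries at 24 h and at 275 to 1640 CPM in A. cahirinus at 12 d after 20 Gy.

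Of the 3 starts listed for Adar 2 are shown, and 1 of Cgas, because Adar and Cgas are the genes whose 20 Gy response at 12 d differed between populations without the block; the Adar window not shown, chr3:89714772-89715071, overlaps the first one printed. The windows run from 250 bases before to 50 bases after a start, in RefSeq promoters of build GRCm38.p6, which is not the build of the counts (GRCm39). Of the 9 genes, 7 matched this table, with 10 windows; Sting1 and Rnaseh2b did not. Capitals mark CG dinucleotides in the first and the last sequence and the letters GAAANNGAA in the second.
Adar, chr3:89714988-89715287, plus strand: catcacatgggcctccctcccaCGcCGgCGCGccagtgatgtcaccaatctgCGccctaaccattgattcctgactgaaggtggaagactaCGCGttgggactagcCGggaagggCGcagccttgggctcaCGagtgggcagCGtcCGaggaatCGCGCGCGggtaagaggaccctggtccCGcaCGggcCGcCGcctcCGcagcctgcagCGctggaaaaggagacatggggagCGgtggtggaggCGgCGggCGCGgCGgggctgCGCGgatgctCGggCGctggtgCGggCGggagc
Adar, chr3:89730468-89730767, plus strand: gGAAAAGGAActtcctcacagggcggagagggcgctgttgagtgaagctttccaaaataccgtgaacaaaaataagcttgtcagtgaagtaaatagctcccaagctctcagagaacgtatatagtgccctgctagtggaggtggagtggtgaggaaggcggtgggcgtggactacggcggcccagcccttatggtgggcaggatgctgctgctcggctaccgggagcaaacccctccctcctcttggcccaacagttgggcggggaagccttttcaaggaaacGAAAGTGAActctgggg
Cgas, chr9:78443188-78443487, minus strand: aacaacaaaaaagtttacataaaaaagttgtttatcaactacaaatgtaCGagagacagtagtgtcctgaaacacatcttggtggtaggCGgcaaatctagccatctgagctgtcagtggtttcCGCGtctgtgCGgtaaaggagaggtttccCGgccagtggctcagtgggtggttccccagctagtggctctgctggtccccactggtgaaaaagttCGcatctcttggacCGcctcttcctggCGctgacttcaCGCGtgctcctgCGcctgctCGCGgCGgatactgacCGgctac
The first printed Adar window holds 34 CG dinucleotides, and 92.3% of the 32851 promoters in the table hold fewer, while the overlapping window not shown holds 6 (43.6% hold fewer). The second printed Adar window holds 12 and the Cgas window 16, against a median of 7 over all promoters. The core of the interferon-stimulated response element, which is the letters GAAANNGAA followed by 1 further A, was searched on both strands and was in 0 of the 10 windows and in 3.44% of all promoters. The E2F sites TTTCCCGC and TTTGGCGC, also searched on both strands, were in 0 of the 10 windows and in 1.07% and 0.514% of all promoters. After the windows had been read, the element was searched again without its last base: GAAANNGAA, which includes every match of the longer form, was in 8.56% of all promoters and in 1 of the 10 windows, the second one printed for Adar. That window holds it 2 times, at bases 2 to 10, before the start, and at bases 284 to 292, after it. Adar is known to be read from a constitutive and an interferon-inducible start, and counts per gene do not separate them.

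The genes were present at very different levels. Per kb of the deposited gene length, group means in the mouse populations were 0.69 to 1.88 CPM for Cgas, 2.61 to 6.57 for Adar and 1.27 to 2.89 for Rnaseh2b, while Sting1, Mavs, Tbk1, Irf3 and Samhd1 lay between 7.77 and 25.3. In A. cahirinus Mavs stood at 10.05 to 14.41 CPM per kb, Irf3 at 6.94 to 10.4, Tbk1 at 6.66 to 10.3, Adar at 6.32 to 8.28 and Trex1 at 7.36 to 8.2. Rnaseh2b (2.66 to 6.59), Samhd1 (1.19 to 3.16) and Cgas (0.148 to 1.24) were lower there. Sting1 had 0 to 23 counts in an A. cahirinus library, 0 to 0.6659 CPM, around the floor, and was left out of the fits there by the filter on low counts. In the mouse libraries it stood at 22.17 to 102.9 CPM. The 2 tables come from different gene models, so this contrast says how many reads each table assigned and is not a comparison of levels between species. Trex1 was the reverse case. It was listed at 0 in all 56 mouse libraries, where 100% of its 1147 exonic bases also belong to Atrip on the same strand and reads in more than 1 gene were not assigned, so its level in mice was not measurable. In A. cahirinus Trex1 stood at 7.039 to 10.28 CPM, with group means of 8.29 to 9.24, and it passed no threshold in any comparison. Smaller overlaps touch Adar, where 16.8% of the exonic bases in the mouse annotation are shared with Chrnb2 on the other strand (0.1% in A. cahirinus), Cgas (4.9%), Irf3 (2.6%) and Rnaseh2b (1.1%).

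**Figure D1:**
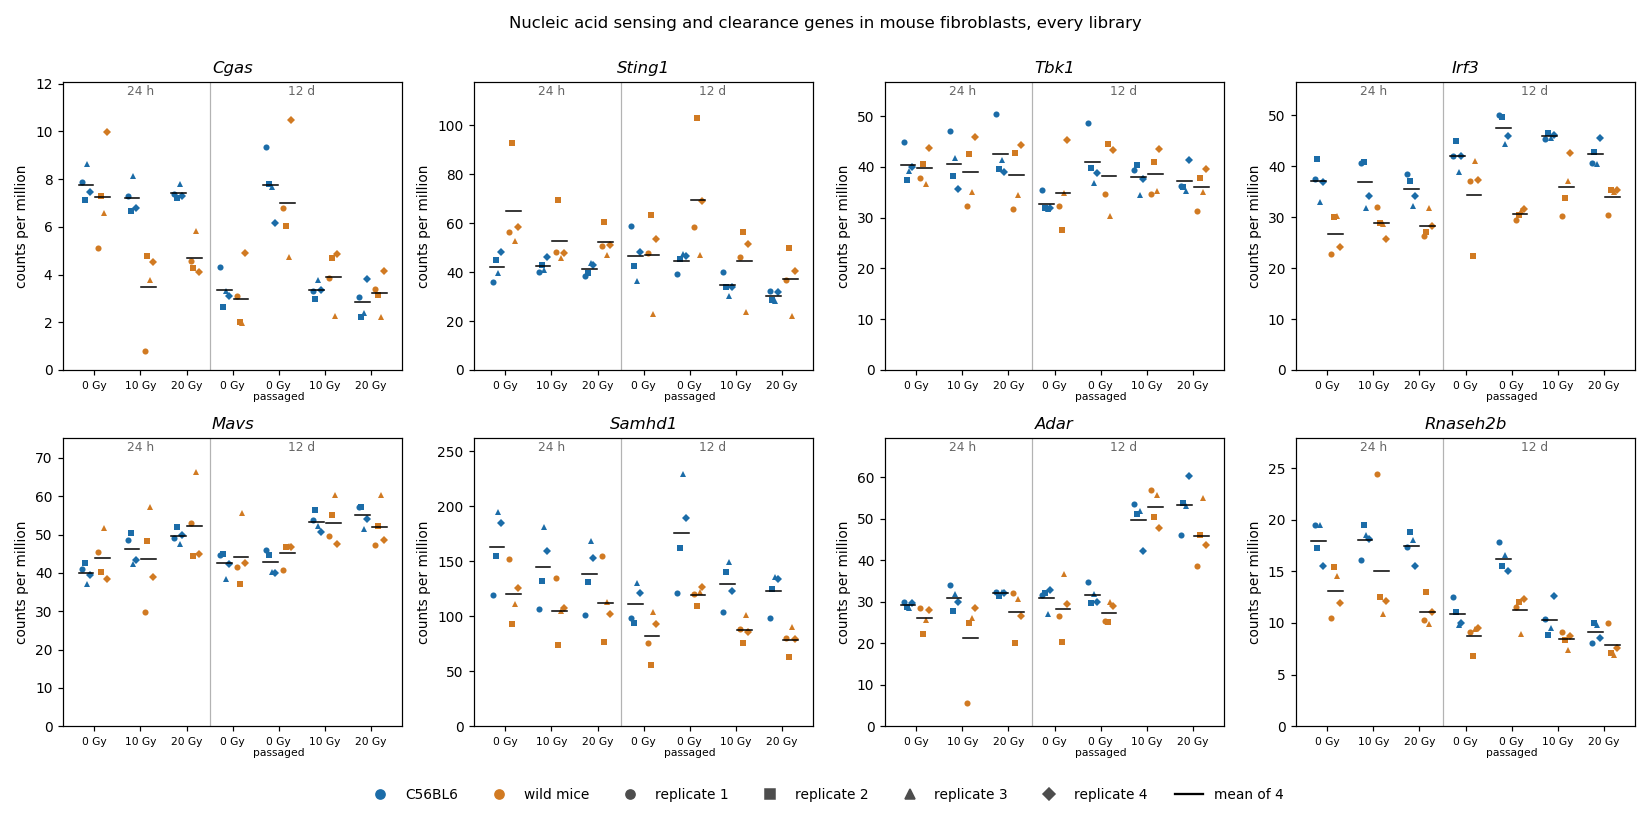
CPM (y axis) of 8 genes in every mouse library, by dose and time (x axis), with C56BL6 in blue, wild mice in orange, a symbol for each replicate number and a black line at the mean of 4 libraries; Trex1, at 0 throughout, is left out. Adar in the irradiated groups at 12 d (38.53 to 60.29 CPM) lies above every other mouse group, and Cgas is higher in the passaged than in the other 12 d groups of C56BL6.

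The first question was how 20 Gy changed these genes after 12 d. In C56BL6, Adar and Mavs rose, Sting1 fell, and the other 5 genes tested did not pass the threshold of an adjusted p of 0.05 (edgeR quasi-likelihood test, Benjamini-Hochberg over all genes tested). These 3 of 8 stand beside 26.5% of all 15119 genes tested. Leaving out 1 replicate number moved the calls over all genes too, from 4010 to between 1092 and 6087. In A. cahirinus, Cgas and Rnaseh2b fell and Tbk1 rose, 3 of 8 beside 31.8% of all genes, and Adar stayed near its untreated level. There 4287 of all genes were called, and 1626 to 6678 with 1 number left out. In wild mice 0 of 8 passed, with 1 of 8 (Adar) at an unadjusted p under 0.05 and 0 by DESeq2, beside 0.0694% of all genes. That share, like every share of all genes given here, is for the edgeR adjusted p. At an unadjusted p under 0.05, 1984 of the 14399 genes passed, and by DESeq2 663 of 14203. With the replicate number as a block, Adar rose, beside 15.4% of all genes. In bulk RNA, fewer cells of a type and less RNA per cell cannot be told apart. Values in CPM are relative to the library total, and between the 12 d irradiated and untreated mouse groups the median gene lies 0.10 to 0.15 higher on the log2 scale in CPM than in the fits, whose scaling (TMM) takes this shift out. In A. cahirinus that shift was at most 0.03 in size.

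Adar, the RNA editing enzyme, showed the largest rise. In untreated C56BL6 cultures at 12 d the 4 libraries stood at 31.59, 32.15, 26.92 and 32.69 CPM, and after 20 Gy at 46.11, 53.86, 52.94 and 60.29 CPM. All 4 irradiated libraries lay above all 4 untreated ones. The fitted change was 0.67 ± 0.10 on the log2 scale (SE, n = 4 against 4), 1.59-fold, with an edgeR adjusted p of 0.00316 that stayed between 0.00109 and 0.0408 when any 1 replicate number was left out. The passaged untreated cultures stood at 34.83, 29.56, 31.84 and 30.02 CPM, below all irradiated libraries at that time. After 10 Gy the values were 53.61, 51.12, 51.74 and 42.26 CPM, again above every untreated library. The 10 Gy change was 0.56 ± 0.10 with an edgeR adjusted p of 0.0077, which became 0.0562 without replicate 2 and 0.0851 without replicate 3. Over all genes the calls at 10 Gy went from 3107 to 1092 and 283 in these runs, and to 912 without replicate 4. The block called the same genes at 10 Gy, beside 38.8% of all. The direct test of 20 Gy against 10 Gy gave 0.12 ± 0.11 for Adar. In that test 0 of 8 genes passed with or without the block, at an unadjusted p under 0.05 or by DESeq2, beside 0% of all genes without and 0.297% with the block; in wild mice these were again 0 of 8, beside 0% and 0.257%.

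In wild mice Adar was also higher in both irradiated groups, with the 10 Gy mean above the 20 Gy mean. Untreated libraries at 12 d stood at 26.49, 20.35, 36.73 and 29.42 CPM, those after 20 Gy at 38.53, 46.01, 54.83 and 43.57 CPM, and those after 10 Gy at 56.82, 50.35, 55.73 and 47.79 CPM. The irradiated and untreated ranges did not overlap, and the untreated libraries were themselves spread widely. Without the block the 20 Gy change was 0.61 ± 0.17 (edgeR adjusted p = 0.19), and with it 0.60 ± 0.10 (edgeR adjusted p = 0.0117). Without number 1 the blocked value was 0.65 with an edgeR adjusted p of 0.0603 (beside 2% of all genes called), and without number 4 it was 0.64 with 0.0585 (beside 2.63%). At 10 Gy the change was 0.76 ± 0.15 without the block (edgeR adjusted p = 0.0893, beside 0.264% of all genes called) and 0.77 ± 0.11 with it (0.00728, beside 12.7%). There the blocked call held without number 1 (0.69, adjusted p = 0.0494, beside 2.52%) and without number 4 (0.84, adjusted p = 0.0314, beside 3.92%).

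In A. cahirinus Adar did not move with dose at 12 d. The untreated libraries stood at 45.46, 44.6, 43.04 and 46.06 CPM and those after 20 Gy at 42.08, 46.48, 46.89 and 46.4 CPM. The groups overlapped, and the fitted change was 0.02 ± 0.07 (edgeR adjusted p = 0.861). The difference between the responses of A. cahirinus and C56BL6, tested as an interaction, was -0.65 ± 0.13 (edgeR adjusted p = 0.0036). Leaving out replicate 3 gave -0.62 with an adjusted p of 0.0606. Against wild mice the interaction was -0.58 ± 0.19 (edgeR adjusted p = 0.112) without the block and -0.57 ± 0.12 (0.00769) with it; with the block it was -0.62 (0.0141) without wild number 1 and -0.61 (0.0158) without wild number 4. Between wild and C56BL6 mice the Adar response differed by -0.07 ± 0.21, so that differences of either sign lie within the error.

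Genes of the interferon output moved beside Adar. In C56BL6, 11 of 13 such genes tested rose after 20 Gy at 12 d and 0 fell, with a median log2 change of 1.56 against -0.01 over all genes; of all genes 13% were called higher and 13.6% lower. The filter on low counts ran on the 2 groups compared, so listed genes low in untreated cultures could be tested through the irradiated group alone. Such genes could hardly come out other than higher, and this count and median carry that limit. The summed level of the interferon output genes was 143 to 200 CPM in the untreated libraries, 478 to 533 after 10 Gy and 281 to 540 after 20 Gy. The wild libraries summed to 80 to 395, 439 to 1130 and 359 to 1040 CPM at these doses, and those of A. cahirinus to 8.48 to 11.9, 6.41 to 12 and 9.8 to 12 CPM. Mx1, Mx2 and Gbp3 have no row in A. cahirinus, and the gene models differ. The sums are therefore not a comparison of levels between species. The part of the interferon output genes in the Adar result was not tested. The summed macrophage and leukocyte markers were also higher in C56BL6, going from 11.2 to 16.5 CPM in untreated to 22.4 to 29.8 CPM after 20 Gy. In A. cahirinus, where Adar did not move, they went from 3.94 to 6.4 CPM to 6.5 to 9.04 CPM. In wild mice, where Adar was higher, the ranges overlapped, at 13.4 to 37.8 CPM untreated and 23.4 to 32.4 CPM after 20 Gy. Of the 8 markers, Csf1r (up to 44.2 CPM), Cd14 (14.1) and Cd68 (6.97) had counts in all 56 mouse libraries. Aif1 (up to 2.07 CPM), Ptprc (1.11) and Fcer1g (0.569) had counts in 51, 33 and 50 of them, and Adgre1 (0.103) and Tyrobp (0.0714) in 12 and 3. Their part in the Adar result was not tested. Without replicate 1, which holds the keratinocyte markers, the C56BL6 Adar change was 0.75 (edgeR adjusted p = 0.00109).

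Sting1, the adaptor of the DNA sensor, fell in C56BL6. Its untreated values at 12 d were 58.83, 42.41, 36.51 and 48.38 CPM, those after 10 Gy 40.22, 33.79, 30.24 and 34.11 CPM, and those after 20 Gy 32.16, 28.43, 28 and 31.86 CPM. Every 20 Gy library lay below every untreated one, and every 10 Gy library below the untreated library of its own number. The 20 Gy change was -0.75 ± 0.14, 0.596-fold, with an edgeR adjusted p of 0.008; without replicate 4 it was -0.75 with 0.0542, and without replicate 1 -0.64 with 0.00351. At 10 Gy the change was -0.55 ± 0.16 (edgeR adjusted p = 0.0406, 2 of 8 genes beside 20.9% of all), and this call was lost without replicate 2 (0.13), replicate 3 (0.104) or replicate 4 (0.169). In wild mice the untreated libraries stood at 47.88, 63.37, 22.92 and 53.46 CPM and the 20 Gy libraries at 36.97, 49.8, 22.17 and 40.29 CPM. All 4 numbers were lower after 20 Gy, by very different amounts. The change of -0.49 ± 0.36 did not pass without the block (edgeR adjusted p = 0.623) or with it (-0.41 ± 0.13, 0.0746; 0.241 without number 1 and 0.231 without number 4). The difference between wild and C56BL6 responses was 0.26 ± 0.41. Fibroblast markers moved beside Sting1 in C56BL6: they summed to 29500 to 48500 CPM untreated and to 12400 to 16800 CPM after 20 Gy, and their part in the result was not tested.

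Cgas, the DNA sensor itself, changed with 20 Gy in A. cahirinus. Its untreated libraries at 12 d held 1.614, 1.11, 2.712 and 3.127 CPM, and those after 20 Gy held 0.5366, 0.2105, 0.652 and 0.4654 CPM (7 to 23 counts). The ranges did not overlap. The change was -2.20 ± 0.43, 0.218-fold, with an edgeR adjusted p of 0.00628, between 0.00117 and 0.0475 with any 1 number left out. After 10 Gy the libraries stood between the others, at 1.293, 0.4626, 1.865 and 2.05 CPM. All 4 numbers were lower than untreated there, and the change of -0.60 ± 0.46 did not pass (edgeR adjusted p = 0.489, and 0.0507 with the block). Of the 8 genes tested 0 passed at 10 Gy, 0 at an unadjusted p under 0.05 and 0 by DESeq2, beside 2.87% of all genes (with the block also 0, beside 27.5%). The direct test of 20 Gy against 10 Gy gave -1.60 ± 0.49 (edgeR adjusted p = 0.193) without the block and -1.57 ± 0.28 (0.0088) with it. In that test 0 of 8 passed without the block, beside 0.457% of all genes, and 2 with it, Cgas and Samhd1, beside 17.9%. At an unadjusted p under 0.05, 3 of 8 passed unblocked, beside 1917 of 13564 genes, and 1 by DESeq2, beside 706 of 13536. Without replicate 2 Cgas and Samhd1 also passed unblocked (edgeR adjusted p = 0.0135 and 0.0322), where 1985 of all 13588 genes were called.

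In the mice Cgas was low in all unpassaged 12 d groups. The C56BL6 libraries held 4.316, 2.653, 3.307 and 3.081 CPM untreated and 3.049, 2.237, 2.375 and 3.795 CPM after 20 Gy. The wild libraries held 3.111, 2, 1.954 and 4.914 CPM untreated and 3.395, 3.125, 2.217 and 4.145 CPM after 20 Gy. The groups overlapped in both populations, with changes of -0.34 ± 0.24 and -0.00 ± 0.34. The A. cahirinus response was lower than that of C56BL6 by -1.86 ± 0.48 (edgeR adjusted p = 0.0171), a call lost without replicate 3 (-1.99, 0.0972) or replicate 4 (-1.41, 0.174). It was lower than that of wild mice by -2.19 ± 0.56 (edgeR adjusted p = 0.0489), and here leaving out any 1 number raised the adjusted p to 0.0539 to 0.311. The interaction with C56BL6 had 2 of 7 genes past the threshold beside 18.8% of all genes, the one with wild mice 1 of 7 beside 3.35%, and the one between wild and C56BL6 mice 0 of 8, with 0 at an unadjusted p under 0.05 and 0 by DESeq2, beside 0%. With the block they had 3 of 7 beside 38% (Samhd1 in addition, -0.47 with an adjusted p of 0.0249), 2 of 7 beside 23.3% and 0 of 8 beside 0.101%. Without wild number 1 or 4 the blocked interaction with wild mice again had Cgas and Adar, beside 16.5% and 16.8%, and the one between wild and C56BL6 mice 0 of 8, beside 0.00615% and 0%.

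Proliferation genes moved beside Cgas. In A. cahirinus at 12 d the 8 listed genes summed to 328 to 445 CPM in untreated libraries and to 90.5 to 97.2 CPM after 20 Gy, and all 8 fell, among them Mki67 (-3.74 ± 0.25, edgeR adjusted p = 8.75e-05) and Top2a (-3.24 ± 0.38, 0.00073). In C56BL6 the untreated sums were 90.3 to 344 CPM and those after 20 Gy at most 184 CPM, and 0 of 8 passed without the block; with it 1 rose, Rrm2, and 5 fell. The wild libraries summed to 61 to 317 CPM untreated and 64.7 to 276 CPM after 20 Gy. The part of proliferation in the Cgas result was not tested.

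Rnaseh2b, the ribonucleotide removal subunit, followed the same direction in A. cahirinus. Its libraries held 6.043, 4.878, 6.868 and 5.414 CPM untreated and 3.977, 4.149, 3.77 and 3.869 CPM after 20 Gy. The 20 Gy libraries were tightly grouped below all untreated ones. The change was -0.56 ± 0.15 (edgeR adjusted p = 0.0207), and the call was lost without replicate 1 (0.136), replicate 3 (0.157) or replicate 4 (0.0866). In C56BL6 the untreated values were 12.51, 11.03, 9.799 and 9.975 CPM and those after 20 Gy 8.101, 9.968, 9.821 and 8.567 CPM. These ranges overlapped, and the change of -0.36 ± 0.13 did not pass (edgeR adjusted p = 0.0736, and 0.0571 with the block; DESeq2 gave 0.0457). The interaction between A. cahirinus and C56BL6 was -0.18 ± 0.19 for Rnaseh2b, so no difference between the populations was shown.

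Among the signalling genes the changes were small. Mavs, the mitochondrial adaptor, stood at 44.67, 44.95, 38.48 and 42.31 CPM in untreated C56BL6 libraries and at 57.14, 57.2, 51.54 and 54.17 CPM after 20 Gy, with no overlap. The fitted rise was 0.25 ± 0.07 (edgeR adjusted p = 0.0344), lost without replicate 2 (0.129), replicate 3 (0.151) or replicate 4 (0.128). Tbk1, the kinase, rose in A. cahirinus from 27.13, 26.35, 26.98 and 24.81 CPM to 33.27, 28.98, 34.44 and 29.5 CPM. All 4 irradiated libraries were above all untreated ones, and the change was 0.26 ± 0.08 (edgeR adjusted p = 0.0383), lost without replicate 1 (0.177), replicate 3 (0.17) or replicate 4 (0.0919). In C56BL6 the CPM of Tbk1 was higher after 20 Gy in 4 of 4 numbers, but the fit, which takes out the shift of the median gene, gave 0.06 ± 0.08. Irf3 did not pass after 20 Gy at 12 d in any population, with fitted changes of -0.10 ± 0.07, -0.11 ± 0.14 and 0.04 ± 0.12 in C56BL6, wild mice and A. cahirinus. Samhd1, the deoxynucleotide hydrolase, changed by 0.03 ± 0.15 in C56BL6 and -0.15 ± 0.18 in wild mice. In A. cahirinus it stood at 7.417, 4.002, 6.692 and 6.398 CPM untreated and at 4.388, 2.736, 5.613 and 5.498 CPM after 20 Gy. Each number was lower after 20 Gy although the groups overlapped, and the change of -0.43 ± 0.26 passed with the block (-0.44 ± 0.14, edgeR adjusted p = 0.0316) and not without it (0.226). With the block 4 of 8 genes passed there, beside 49.2% of all genes. In C56BL6 the block called the same 3 genes as before, beside 47.5%.

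**Figure D2:**
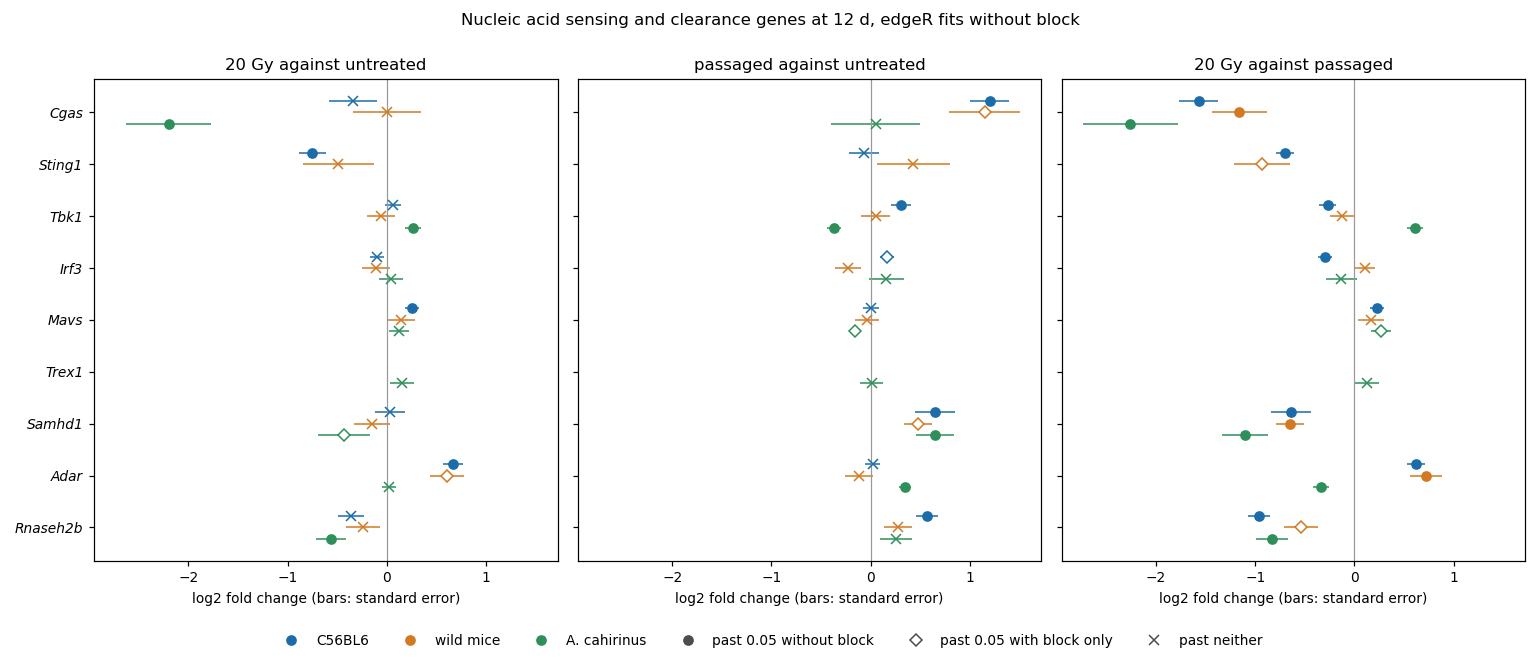
Fitted log2 fold changes at 12 d (x axis, bars: standard error) of each gene (rows) in C56BL6 (blue), wild mice (orange) and A. cahirinus (green), for 20 Gy against untreated, passaged against untreated and 20 Gy against passaged; filled points passed an adjusted p of 0.05 without the replicate block, open diamonds with it only, crosses in neither. Adar lies to the right of 0 in both mouse populations and near 0 in A. cahirinus in the left panel, and Cgas of A. cahirinus lies at -2.20.

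The passaged untreated cultures form a second control at 12 d. In both mouse populations they carried more proliferation RNA, in sum 752 to 1060 CPM for C56BL6 (unpassaged 90.3 to 344) and 392 to 1060 CPM for wild mice (61 to 317). In A. cahirinus the passaged libraries, at 371 to 759 CPM (median 720), overlapped the unpassaged ones, at 328 to 445 CPM (median 383). Against the unpassaged untreated cultures, Cgas, Tbk1, Samhd1 and Rnaseh2b rose in C56BL6, which is 4 of 8 beside 49.6% of all genes, a share close to the background. Cgas stood at 9.324, 7.777, 7.684 and 6.166 CPM in passaged cultures, above all unpassaged ones, with a change of 1.20 ± 0.20 (edgeR adjusted p = 0.00189; 2.3-fold). Samhd1 went from 98.52, 93.86, 129.8 and 120.9 CPM to 121, 161.6, 229.2 and 189.6 CPM. It was higher in 4 of 4 numbers, by 0.65 ± 0.20 (edgeR adjusted p = 0.0273), a call lost without replicate 2 (0.113), replicate 3 (0.0654) or replicate 4 (0.105). Rnaseh2b reached 17.8, 15.5, 16.59 and 14.99 CPM, 0.57 ± 0.11 above unpassaged (edgeR adjusted p = 0.00333). Tbk1 rose by 0.31 ± 0.10 (edgeR adjusted p = 0.0285), lost without replicate 2 (0.128), replicate 3 (0.0631) or replicate 4 (0.101). Of all genes 7157 were called with all numbers, and 4761, 4400 and 4871 in these runs. The block added Irf3 (0.17 ± 0.06, edgeR adjusted p = 0.0473), beside 60.1% of all genes.

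In wild mice, passaged against unpassaged, 0 of 8 genes passed without the block, beside 10.7% of all genes. Cgas and Samhd1 passed at an unadjusted p under 0.05 (2 of 8, beside 3961 of 13978 genes) and by DESeq2 (2 of 8, beside 2903 of 13255). With the block Cgas rose by 1.18 ± 0.15 (edgeR adjusted p = 0.0041) and Samhd1 by 0.49 ± 0.09 (0.0103), beside 31.9%. Cgas values were 6.794, 6.032, 4.739 and 10.48 CPM, each above the unpassaged library of its number. Cgas also passed without number 1 (0.0294, beside 13.7%) and without number 4 (0.027, beside 14.1%), and Samhd1 in neither (0.0667 and 0.0514). In A. cahirinus, 3 of 8 passed beside 25.8%: Tbk1 fell, Samhd1 and Adar rose. Tbk1 stood at 20.82, 20.82, 20.28 and 20.98 CPM, below all unpassaged libraries, a change of -0.37 ± 0.07 (edgeR adjusted p = 0.00627) whose p was 0.0769 without replicate 1 and 0.0654 without replicate 3. Adar stood at 62.46, 54.36, 55.63 and 59.44 CPM, above all unpassaged libraries, a change of 0.35 ± 0.06 (edgeR adjusted p = 0.00704), or 0.0793 without replicate 1. Samhd1 rose by 0.65 ± 0.19 (edgeR adjusted p = 0.0386), lost without replicate 1 (0.109), replicate 3 (0.168) or replicate 4 (0.144). Of all genes 3348 were called with all numbers, and 786, 802 and 1394 in these runs. With the block Mavs fell as well (-0.16 ± 0.05, 0.0361), beside 49.5% of all genes. Cgas in passaged A. cahirinus cultures, at 2.505, 0.7276, 2.681 and 3.117 CPM, overlapped the unpassaged ones.

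Set against the passaged control, which these comparisons share with those above, the 20 Gy cultures of C56BL6 differed in all 8 genes tested, beside 41.6% of all genes (56.1% with the block). Cgas was lower by -1.57 ± 0.20 (edgeR adjusted p = 0.000595), Rnaseh2b by -0.96 ± 0.11 (0.000352), Sting1 by -0.70 ± 0.09 (0.000504), Samhd1 by -0.64 ± 0.20 (0.031), Irf3 by -0.30 ± 0.07 (0.00936) and Tbk1 by -0.27 ± 0.09 (0.0438). Adar was higher by 0.62 ± 0.09 (edgeR adjusted p = 0.00115) and Mavs by 0.23 ± 0.07 (0.0277). The calls on Cgas, Sting1, Adar and Rnaseh2b held with any 1 number left out. Irf3 was lost without replicate 2 (0.0629), Tbk1 without any 1 of the 4 numbers (0.0654 to 0.166), and Mavs and Samhd1 without replicate 2, 3 or 4 (up to 0.116 and 0.115). Over all genes the calls went from 6327 to 3898, 3975 and 4462 without replicate 2, 3 and 4, and to 7527 without replicate 1.

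In wild mice 3 of 8 passed against the passaged control, beside 10.5%: Cgas was lower by -1.16 ± 0.28 (edgeR adjusted p = 0.0367), Samhd1 lower by -0.65 ± 0.14 (0.0273) and Adar higher by 0.72 ± 0.16 (0.0274). Each of the 3 was lost without replicate 1 (0.174, 0.148 and 0.113), replicate 2 (0.112, 0.0678 and 0.119) or replicate 4 (0.128, 0.189 and 0.133). These losses are not particular to the 3: of all genes 1510 were called with all numbers, and 0, 246 and 0 in these runs. The block added Sting1 (-0.93 ± 0.09, edgeR adjusted p = 0.000405) and Rnaseh2b (-0.54 ± 0.14, 0.0173), beside 38% of all genes. All 5 blocked calls held without number 1, beside 28.2%, and without number 4 all but Rnaseh2b (0.0982), beside 22.8%. In A. cahirinus 5 of 8 passed, beside 42.5%. Cgas was lower by -2.26 ± 0.48 (edgeR adjusted p = 0.00678), Samhd1 by -1.10 ± 0.23 (0.00581), Rnaseh2b by -0.83 ± 0.16 (0.00448) and Adar by -0.34 ± 0.08 (0.00813), and Tbk1 was higher by 0.61 ± 0.08 (0.000781). Adar was lost without replicate 1 (0.101) or replicate 4 (0.0597), and the block added Mavs (0.26 ± 0.09, 0.0437), beside 56%. Without replicate 2 Mavs also passed unblocked (edgeR adjusted p = 0.00385). Of all genes 5668 were called with all numbers, 2677 without replicate 1, 3457 without replicate 4 and 8115 without replicate 2. Adar thus was above the passaged control in both mouse populations after 20 Gy and below it in A. cahirinus; the difference between these effects was not tested.

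**Figure D3:**
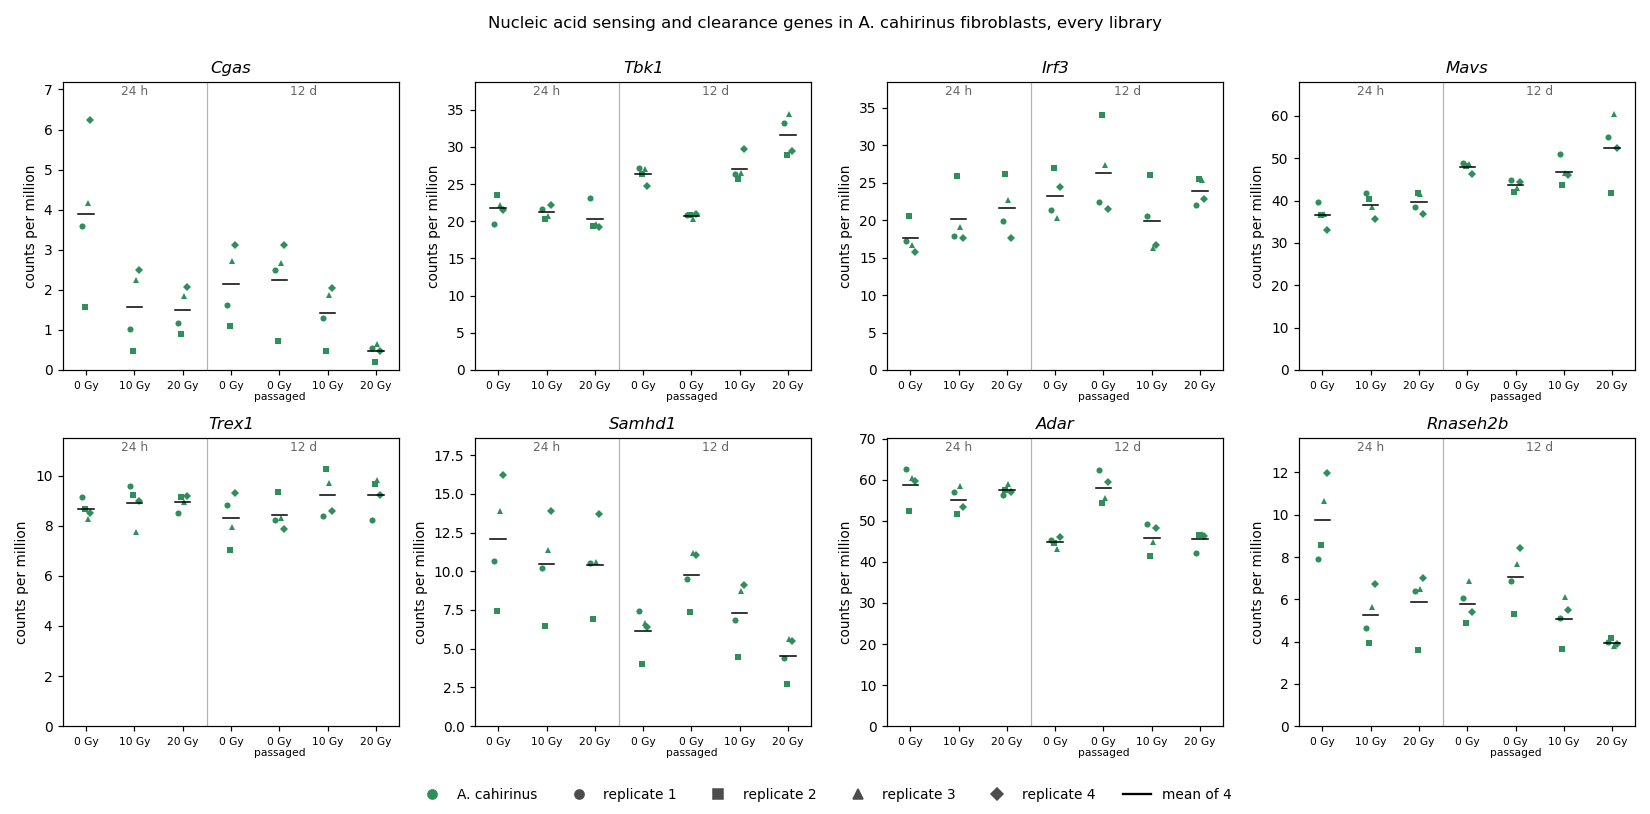
CPM (y axis) of 8 genes in every A. cahirinus library, by dose and time (x axis), with a symbol for each replicate number and a black line at the mean of 4 libraries; Sting1, near the floor, is left out. Cgas after 20 Gy at 12 d (0.2105 to 0.652 CPM) lies below every library of the untreated groups at either time, and Trex1 keeps to 7.039 to 10.28 CPM.

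At 24 h the question was the early response. In C56BL6 0 of 8 genes passed after 20 Gy, beside 0.0895% of all genes. At an unadjusted p under 0.05, 1 of 8 (Mavs) passed, beside 1426 of 14526 genes, and 1 by DESeq2 (Mavs again), beside 269 of 14443. With the block Mavs rose and Samhd1 fell, beside 17.6%. Mavs stood at 40.97, 42.53, 37.12 and 39.48 CPM untreated and at 49.19, 52.09, 47.45 and 50 CPM after 20 Gy, a blocked change of 0.28 ± 0.05 (edgeR adjusted p = 0.0016). The groups did not overlap. Samhd1 stood at 119, 154.4, 194.9 and 184.9 CPM untreated and at 100.7, 131.3, 168.5 and 153.2 CPM after 20 Gy. Each number was lower by a similar share while the numbers differed widely from each other, and the blocked change was -0.27 ± 0.04 (edgeR adjusted p = 0.000704; 0.747 without the block). After 10 Gy the same genes passed with the block, Mavs at 0.19 ± 0.05 (edgeR adjusted p = 0.034) and Samhd1 at -0.19 ± 0.05 (0.0214), beside 11.5%. Without it 0 of 8 passed, beside 0.007%. At an unadjusted p under 0.05, 1 of 8 passed, beside 1116 of 14280 genes, and by DESeq2 0, beside 149 of 14201. Without replicate 1, the number with keratinocyte markers, the unblocked 20 Gy changes were of like size, 0.30 ± 0.08 for Mavs (edgeR adjusted p = 0.18) and -0.27 ± 0.11 for Samhd1 (0.345). The Adar values at 24 h, 31.41 to 32.36 CPM after 20 Gy against 28.36 to 29.92 CPM untreated, did not overlap, but the fitted change of 0.10 ± 0.05 did not pass (edgeR adjusted p = 0.59, and 0.222 with the block).

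In wild mice at 24 h Cgas was at 5.091, 7.291, 6.589 and 9.97 CPM untreated and at 4.585, 4.273, 5.819 and 4.118 CPM after 20 Gy. Each number was lower after 20 Gy, although the groups overlapped. Without the block 0 of 8 genes passed, beside 0% of all genes. At an unadjusted p under 0.05, 1 of 8 (Cgas) passed, beside 856 of 14473 genes, and by DESeq2 0. With the block Cgas (-0.62 ± 0.19, edgeR adjusted p = 0.0485) and Sting1 (-0.31 ± 0.09, 0.0452) fell, beside 12.5%. Neither passed without number 4 (0.252 and 0.103, beside 5.52%). Both passed without number 1 (0.0168 and 0.0339, beside 16.6%). Sting1 stood at 56.55, 92.7, 52.68 and 58.47 CPM untreated and at 50.83, 60.32, 46.91 and 51.09 CPM after 20 Gy. At 10 Gy replicate 1, the library with few detected genes, held Cgas at 0.8037 CPM and Adar at 5.626 CPM, where the other 3 held 3.772 to 4.766 CPM and 24.91 to 28.4 CPM. With all 4 numbers 0 of 8 passed with or without the block, beside 0% of all genes in both fits. At an unadjusted p under 0.05, 1 of 8 (Cgas) passed unblocked, beside 603 of 14412 genes, and by DESeq2 0, beside 92 of 13818. Without number 1 and with the block, Cgas (-0.88, edgeR adjusted p = 0.00213), Sting1 (-0.33, 0.0105) and Samhd1 (-0.24, 0.0369) fell, beside 23% of all genes.

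In A. cahirinus at 24 h Cgas stood at 3.59, 1.573, 4.167 and 6.228 CPM untreated, at 1.022, 0.4757, 2.243 and 2.504 CPM after 10 Gy and at 1.179, 0.8899, 1.85 and 2.062 CPM after 20 Gy. Each number was lower after either dose, and the spread between numbers was as wide as the change. Without the block the 20 Gy change of -1.35 ± 0.41 did not pass (edgeR adjusted p = 0.126; 0.0276 without replicate 2), and with it the change was -1.31 ± 0.16 (0.000366). Rnaseh2b stood at 7.897, 8.563, 10.66 and 11.96 CPM untreated, 4.662, 3.936, 5.644 and 6.729 CPM after 10 Gy and 6.4, 3.601, 6.487 and 7 CPM after 20 Gy. Both irradiated groups lay below the untreated one. At 10 Gy it fell by -0.87 ± 0.18 (edgeR adjusted p = 0.0402, 1 of 8 beside 3.73% of all genes), lost without replicate 1 (0.178), replicate 3 (0.32) or replicate 4 (0.0632). Over all genes the calls went from 488 to 0, 0 and 328 in these runs. At 20 Gy Rnaseh2b passed with the block (-0.73 ± 0.13, edgeR adjusted p = 0.00355) and not without it (0.123). Irf3 rose with the block at 20 Gy (0.32 ± 0.08, edgeR adjusted p = 0.013) and at 10 Gy (0.22 ± 0.07, 0.0343). At 20 Gy 0 of 8 genes passed without the block, beside 3.59% of all genes, and 3 with it, beside 24.1%. Cgas and Rnaseh2b passed at an unadjusted p under 0.05 (2 of 8, beside 2281 of 13146 genes) and by DESeq2 (2 of 8, beside 1107 of 13108). At 10 Gy the block called 3 beside 27.6%. The proliferation genes summed to 1100 to 1530 CPM untreated, 253 to 620 CPM after 10 Gy and 285 to 613 CPM after 20 Gy, and their part in these results was not tested.

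The interaction of A. cahirinus with C56BL6 at 24 h had 0 of 7 genes past the threshold without the block, beside 2.09% of all genes. At an unadjusted p under 0.05 it had 3 of 7, beside 1462 of 13589 genes, and by DESeq2 0, beside 521 of 11952. With the block it had 3, beside 16.8%: Cgas (-1.23 ± 0.18, edgeR adjusted p = 0.000148), Rnaseh2b (-0.67 ± 0.15, 0.00638) and Irf3 (0.40 ± 0.09, 0.00668). With wild mice it had 0 of 7, 0 at an unadjusted p under 0.05 and 0 by DESeq2, beside 0% without and 7.25% with the block, and Cgas there was -0.71 ± 0.49. Wild against C56BL6 responses had 0 of 8 without and with the block, beside 0% and 0.647%. At an unadjusted p under 0.05 they had 1 of 8 (Cgas), beside 253 of 15612 genes, and by DESeq2 0. The doses did not separate at 24 h in any population: 0 of 8 genes passed between 20 Gy and 10 Gy by edgeR with or without the block, by DESeq2 or at an unadjusted p under 0.05. These stand beside 0% of all genes without the block, and with it 1.44% in C56BL6, 0% in wild mice and 0.302% in A. cahirinus. Without number 1, whose 10 Gy library has few detected genes, the block called 1.94% of all genes between the doses in wild mice and again 0 of the 8. The untreated wild and C56BL6 cultures, which come from different animals and have no block, had 0 of 8 past the threshold at 24 h, beside 5.7% of all genes. At an unadjusted p under 0.05, 3 of 8 passed there, beside 3175 of 14317 genes, and by DESeq2 2, beside 1766 of 14220. At 12 d 0 passed by each of these, beside 2.93% of all genes by the edgeR adjusted p. The 2 that DESeq2 called were Sting1, higher in wild mice (DESeq2 adjusted p = 0.0182; edgeR 0.0828), and Irf3, lower in wild mice (0.0315; edgeR 0.0973).

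The other genes of the pathway were counted from fixed lists. The filter on low counts ran on the 2 groups compared, so a listed gene low in untreated cultures could be tested through the other group alone. Such a gene could hardly come out other than higher in that other group. Which genes entered in this way was not examined, and the counts and medians of these lists carry this limit in each population. In C56BL6 at 12 d, 10 of 21 other sensors and adaptors tested rose after 20 Gy and 3 fell, with a median log2 change of 0.59 against -0.01 over all genes. The largest rises were those of the oligoadenylate synthetases Oas3 (3.74 ± 0.67, edgeR adjusted p = 0.00617) and Oas2 (3.56 ± 0.63, 0.00605), which answer to double-stranded RNA. The adaptor Myd88 (-0.59 ± 0.16, 0.0288) and Nlrx1 (-0.55 ± 0.08, 0.00316) had the largest falls. Of 16 kinase complex members and transcription factors 6 rose and 1 fell, beside the same 13% and 13.6% of all genes; Irf7, a driver of late interferon genes, rose by 1.32 ± 0.30 (edgeR adjusted p = 0.0141), the autophagy receptor Sqstm1 by 0.75 ± 0.16 (0.0127), and Irf1 fell by -0.71 ± 0.18 (0.0217). Of 15 other nucleases and clearance genes 5 fell and 0 rose, beside 13.6% and 13% of all genes. The cGAMP hydrolase Enpp1 fell from a mean of 63.9 to 11.1 CPM (-2.64 ± 0.22, edgeR adjusted p = 0.000718), and the second RNA editing gene Adarb1 fell by -1.39 ± 0.19 (0.00255), opposite in direction to Adar.

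Wild mice had medians of similar size at 12 d and 20 Gy and few calls without the block, where 0.0278% of all genes were called higher and 0.0417% lower. The block called 7.66% higher and 7.79% lower; without number 1 it called 1.15% and 0.846%, and without number 4 1.46% and 1.18%, so the blocked counts are given in these 3 ways. The sensors had a median of 0.53, with 1 of 19 higher without the block (Oas2, 3.86 ± 0.47, edgeR adjusted p = 0.0481) and 9 higher and 1 lower with it (6 and 5 higher, 0 lower, without number 1 and number 4). The interferon output had a median of 1.63, with 0 of 13 past the threshold without the block and 9 higher with it (7 of 14 and 7 of 12 tested without number 1 and number 4). Usp18 had a change of 2.89 ± 0.56 without the block (edgeR adjusted p = 0.0888; 0.00609 with the block, 0.027 and 0.0402 without number 1 and number 4). The kinase and transcription factor list had 0 of 16 without and 5 higher with the block (2 and 1 without number 1 and number 4). The nucleases had 0 of 15 without and 3 lower with it (0 and 1 without number 1 and number 4), Enpp1 among the 3 (-1.50 ± 0.79, edgeR adjusted p = 0.462; 0.00941 with the block, 0.0614 and 0.052 without number 1 and number 4). In A. cahirinus, where 13.8% of all genes were called higher and 18.1% lower, the sensors had a median of 0.00 with 1 of 15 higher, Eif2ak2, the RNA-activated kinase (0.75 ± 0.19, edgeR adjusted p = 0.019). Of the interferon output 1 of 5 genes tested was higher, with a median of 0.05. The kinase list had 3 higher and 1 lower of 16; Sqstm1 rose by 0.74 ± 0.11 (edgeR adjusted p = 0.00225) and Nfkb1 fell by -0.79 ± 0.09 (0.000667). The nucleases had 2 higher and 4 lower of 15: Enpp1 fell by -1.51 ± 0.34 (edgeR adjusted p = 0.0108), Rnaseh2c, the partner subunit of Rnaseh2b, by -0.65 ± 0.11 (0.00324), and Pld3, a lysosomal nuclease, rose by 0.67 ± 0.12 (0.00383). Enpp1 therefore had a negative fitted change after 20 Gy in all 3 populations, past the threshold without the block in C56BL6 and A. cahirinus.

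**Figure D4:**
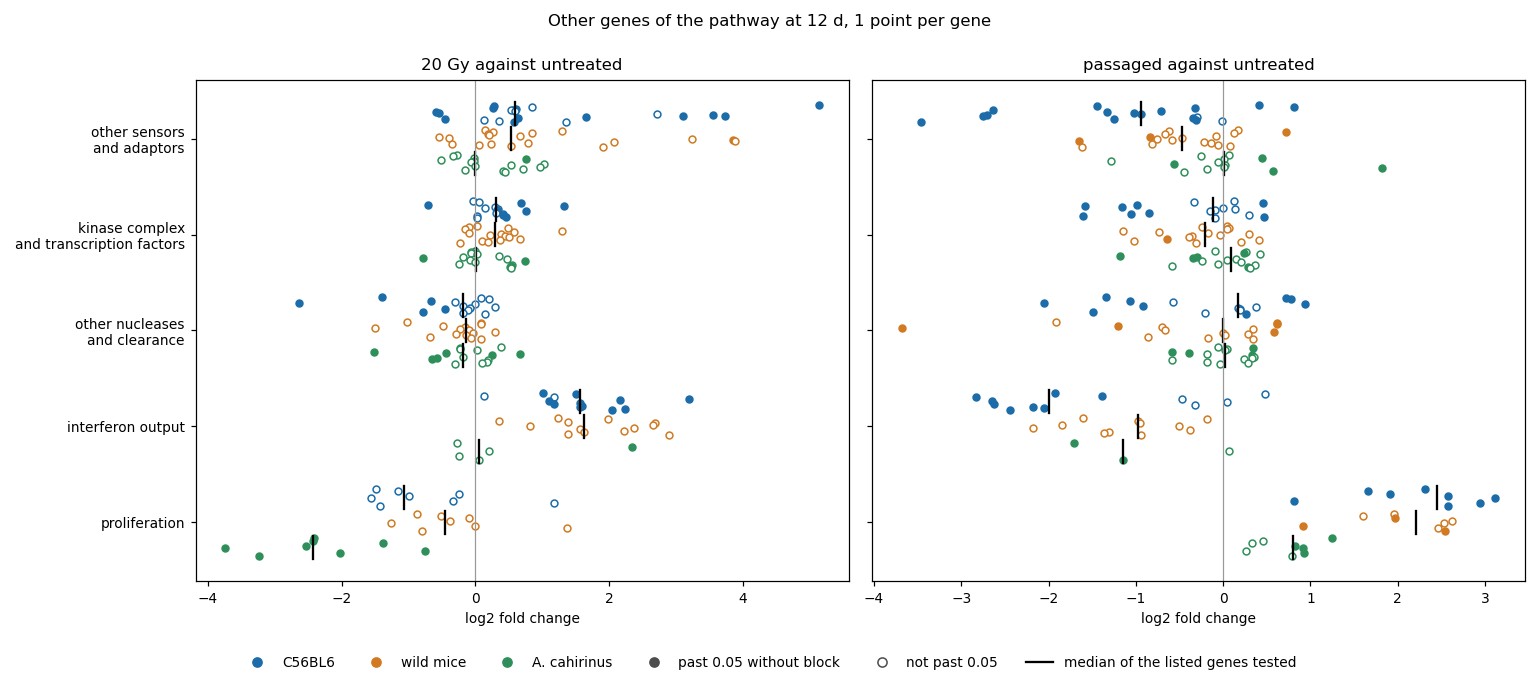
Fitted log2 fold changes at 12 d (x axis) of the other genes of the pathway, 1 point per gene, for 20 Gy against untreated and passaged against untreated in C56BL6 (blue), wild mice (orange) and A. cahirinus (green); filled points passed an adjusted p of 0.05 without the block and black lines are medians of the genes tested. The interferon output medians after 20 Gy are 1.56, 1.63 and 0.05, each over the genes tested in that population. These sets differ, and the fewest genes were tested in A. cahirinus.

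In passaged C56BL6 cultures, against unpassaged ones, 24.2% of all genes were called higher and 25.5% lower. Of 17 sensors 13 fell and 2 rose (median -0.94 against -0.02 over all genes), with the nucleic acid sensor Zbp1 at -3.46 and the oligoadenylate synthetase-like gene Oasl2 at -2.75, and Dhx9 higher by 0.81 ± 0.09 (edgeR adjusted p = 0.000494). Of 12 interferon output genes 8 fell and 0 rose (median -1.99), Ifit1 by -2.65 ± 0.23 (edgeR adjusted p = 0.000205), and all 8 proliferation genes rose. The kinase and transcription factor list had 2 higher and 6 lower of 16 and the nucleases 4 higher and 5 lower of 15, which is 8 and 9 called beside 49.6% of all genes. Among the nucleases Enpp1 was lower by -2.05 ± 0.24 (edgeR adjusted p = 0.00049) and the small RNA processing enzyme Dicer1 higher by 0.78 ± 0.07 (0.00028). In wild mice, beside 5.51% of all genes higher and 5.2% lower, the sensors had 1 higher and 2 lower of 17 and the interferon output 0 of 11. With the block 7 of the 11 were lower, beside 15.1% of all genes higher and 16.8% lower. Without number 1 that was 1 of 11, beside 6.8% and 6.9%, and without number 4 it was 2 of 12, beside 6.96% and 7.19%. Enpp1 was lower there by -3.68 ± 0.78 (edgeR adjusted p = 0.0284). In A. cahirinus, beside 12.1% of all genes higher and 13.6% lower, 3 sensors of 13 were higher and 1 lower, and 2 of 3 interferon output genes fell, Bst2 by -1.71 ± 0.16 (edgeR adjusted p = 0.000772). Enpp1 fell by -0.59 ± 0.13 (0.0133).

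The genes whose pattern was most like each of these were found by Pearson correlation of log2 CPM over the 12 d libraries, each centred on its population mean; these are descriptions over libraries that share dose groups and depth. Over the 32 mouse libraries, Adar was nearest to the interferon-inducible GTPase gene Irgm1 and to Pml (r = 0.92 for both), and Cgas to Hnrnpa2b1 and the cyclin gene Ccnf (0.94 for both). Sting1 was nearest to Septin11 (0.90) and Kif21b (0.89), Rnaseh2b to the histone acetyltransferase gene Hat1 (0.91) and Tra2b (0.90), and Mavs to Supt5 (0.92) and Tmem179 (0.91). Samhd1 was nearest to Hnrnpr (0.87) and Mapk14 (0.86), Tbk1 to Sfswap (0.82) and Utp14a (0.81), and Irf3 to Hmg20b (0.82) and Rmnd1 (0.78). Over the 16 A. cahirinus libraries Cgas was nearest to Nup133 and the histone methyltransferase gene Ezh2 (0.98 for both), Rnaseh2b to Hnrnpll and Ccdc43 (0.98 for both), and Adar to Diaph1 and the splicing factor gene Sfpq (0.94 for both). Samhd1 was nearest to Thoc6 and Gemin5 (0.96), Tbk1 to Trp53inp1 and Rab44 (0.95), Irf3 to Arhgef25 (0.93) and Slco4a1 (0.91), Mavs to 1520401A03Rik and Pnpla7 (0.91), and Trex1 to Prkch (0.81) and Catsper3 (0.79).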

How the data were processed

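Raw counts per gene were deposited by the authors, per the file headers made with featureCounts 2.0.3 in paired mode on Ensembl release 108 annotation (GRCm39) for mouse and on AcoCah2 for A. cahirinus, with no option for strand, multimapping or overlapping genes; Trim Galore and HISAT2 are named in the submitters' processing notes. The library was a stranded mRNA library, per the labels' protocols. Reads in overlapping genes, on either strand, were thus not assigned.

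Mouse gene identifiers were paired with symbols through GENCODE. In R 4.3.3, edgeR 4.0.16 (TMM, filterByExpr, quasi-likelihood test, Benjamini-Hochberg over all genes tested, threshold 0.05) was fitted on the 2 groups compared. Interactions used both tables joined by symbol, with scaling within each table; Trex1 and Sting1 were left out of those with A. cahirinus, a choice made after their values were seen. SE is the log2 fold change over the square root of F. Alternatives were RLE size factors, no filter, DESeq2 1.42.0, the replicate block and leaving out each number. Same-numbered libraries deviated together (mean r 0.48 to 0.88 over 24 comparisons, lowest pair 0.33), so the numbers pair the samples. Different numbers had a mean r of -0.29 to -0.12, negative values that follow from centring on the group mean and add no support. The pairing does not show that wild numbers 1 and 4 at 12 d are different animals. The scripts were tested on simulated data.

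The 9 genes and the other lists were chosen with earlier results of these data known. Of each other list, at most the 2 largest rises and 2 largest falls past the threshold (with or without the block, mean of at least 1 CPM) are named in 20 Gy and passaged against untreated at 12 d; as most alike, the 2 genes with the highest correlation. In the printed promoters, the shortened element was chosen after seeing the sequences. CPM are counts over the library total. Libraries of a number come from 1 animal code, and nothing else says how cultures were separated, so p-values measure the spread between these libraries.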

Additional observations from a re-analysis of the deposited data

Results flagged for a closer look

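In each group of 4 libraries the highest and lowest value of each of the 9 genes was compared with its nearest neighbour; 11 of 170 such groups had a value set apart by more than Dixon's limit at the 95% level, and chance flags about 1 in 20. In the wild mice at 24 h and 10 Gy, replicate 1 held Adar at 5.626 CPM (others 24.91 to 28.4) and Rnaseh2b at 24.46 CPM (others 10.88 to 12.51); this is the library with 17419339 counts and few detected genes. Replicate 2 of the wild mice held Sting1 at 92.7 CPM at 24 h untreated (others 52.68 to 58.47) and at 69.65 CPM at 24 h and 10 Gy (others 45.85 to 48.34), and Rnaseh2b at 6.807 CPM at 12 d untreated (others 9.161 to 9.53). Replicate 1 of the wild mice held Irf3 at 30.44 CPM at 12 d and 20 Gy (others 34.88 to 35.29) and Mavs at 40.63 CPM in passaged cultures (others 46.66 to 47.06). In C56BL6, replicate 1 held Tbk1 at 35.43 CPM at 12 d untreated (others 31.71 to 31.99). In A. cahirinus, replicate 1 held Tbk1 at 23.11 CPM at 24 h and 20 Gy (others 19.28 to 19.63) and Adar at 42.08 CPM at 12 d and 20 Gy (others 46.4 to 46.89), and replicate 4 held Sting1 at 0.6109 CPM at 12 d and 20 Gy (others 0.08504 to 0.1578), a low level where few counts decide the value.

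Effects of 20 Gy at 12 d differed between populations by the interaction test for Cgas, by -1.86 on the log2 scale between A. cahirinus and C56BL6 and by -2.19 between A. cahirinus and wild mice, and for Adar, by -0.65 between A. cahirinus and C56BL6. These are calls without the block. None of them held in every run with a replicate number left out, and the call with wild mice held in no such run.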

How the results depend on the processing

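Directions were checked for 20 Gy and for passaged against untreated, where the main or the alternative run passed the threshold. None of these changes reversed. The directions of changes that passed in neither run, and of the other comparisons, were not checked. With the numbers of genes past the threshold, the replicate block gave 2 in place of 0 in C56BL6 at 24 h after 20 Gy and 2 after 10 Gy, 2 in wild mice at 24 h after 20 Gy, 1 after 20 Gy and 1 after 10 Gy at 12 d, 2 in passaged wild cultures and 5 in place of 3 against the passaged control, 3 in A. cahirinus at 24 h after 20 Gy and 3 in place of 1 after 10 Gy, 2 between its doses at 12 d, and 3 (24 h, with C56BL6) and 2 in place of 1 (12 d, with wild mice) in the interactions. The block without wild number 1 gave 2 and 3 at 24 h after 20 Gy and 10 Gy, 1 at 12 d after 10 Gy, 1 in passaged cultures and 5 against the passaged control; without number 4 it gave 1 at 12 d after 10 Gy and 1 in passaged cultures. In each comparison named for the block with all numbers, the share of all genes called rose too, as given above. DESeq2 gave 1 in C56BL6 at 24 h after 20 Gy, beside 269 of all 14443 genes. In wild mice it gave 1 at 12 d after 10 Gy (beside 600 of 14212), 2 in passaged cultures (2903 of 13255) and 5 against the passaged control (2617 of 14191). In A. cahirinus it gave 2 at 24 h after 20 Gy (1107 of 13108) and 1 between the doses at 12 d (706 of 13536). Between untreated wild and C56BL6 cultures at 24 h it gave 2 (1766 of 14220). An alternative chosen after seeing the data, the block without the wild libraries of number 1 or of number 4, gave 2 and 2 in place of 1 in the 12 d interaction of A. cahirinus with wild mice. Without the filter on low counts, 1 in place of 3 passed in wild mice against the passaged control and 0 in place of 1 in the interaction of A. cahirinus with wild mice at 12 d. The block changed no other count by over 1.5 times, and RLE size factors changed no call in 72 single-gene results.

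Leaving out each replicate number gave 1 to 3 (main 3) in C56BL6 at 12 d after 20 Gy, 0 to 2 (main 2) after 10 Gy, 2 to 4 (main 4) in passaged cultures and 4 to 7 (main 8) against them; 0 to 3 (main 3) in wild mice against passaged cultures; and in A. cahirinus 0 to 1 at 24 h after either dose (main 0 after 20 Gy, 1 after 10 Gy), 1 to 5 (main 3) at 12 d after 20 Gy, 0 to 2 (main 0) between doses, 0 to 3 (main 3) in passaged cultures and 4 to 6 (main 5) against them. The interactions at 12 d gave 0 to 2 (main 2) with C56BL6 and 0 to 0 (main 1) with wild mice. All other comparisons had 0 throughout. Calls over all genes moved in these runs too. For C56BL6 at 12 d they were 1092 to 6087 (main 4010) after 20 Gy and 283 to 5366 (main 3107) after 10 Gy. Passaged C56BL6 cultures had 4400 to 8531 (main 7157). The wild 20 Gy cultures against passaged ones had 0 to 1894 (main 1510). For A. cahirinus at 12 d they were 1626 to 6678 (main 4287) after 20 Gy, 0 to 1985 (main 62) between doses and 786 to 5039 (main 3348) in passaged cultures. Depth limits Cgas in A. cahirinus, with as few as 7 counts in a library, and Sting1 there; Trex1 in mice is limited by the overlap with Atrip, not by depth.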
